A study of Mus musculus with 2 samples.

Results

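The genes described here are the carriers that bring glucose, related sugars, lactate and other small metabolites across cell membranes. They were chosen by name alone, as every gene of the deposited table whose symbol is Slc2a, Slc5a or Slc16a followed only by a number. The rule found 37 of the 23176 genes in the table, 12 of them Slc2a, 11 Slc5a and 14 Slc16a genes. Slc5a4a, Slc5a4b and the pseudogene Slc2a4rg-ps carry further letters and fall outside it.

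Polyadenylated RNA was sequenced from a pair of mouse cell lines, STHdhQ111 and STHdhQ7. Both were derived from striatum at embryonic day 14, on a 129SvEv/CD1 background, and were used at less than 15 passages. STHdhQ111 has the genotype HdhQ111/Q111, a huntingtin gene with an expanded glutamine-coding tract on both alleles, and STHdhQ7 has the genotype HdhQ7/Q7, with the short tract on both alleles. All cells were kept at 33 °C and held at 39 °C for 2 days before the experiment to stop division. Each genotype is represented by 1 cell line, so an effect of genotype and one of the lines' own histories cannot be told apart. The sample titles name 3 replicates per line, but the table holds 1 combined value per line. No spread between replicates could be computed, and every test quoted is the one in the authors' deposited table.

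Levels are given as FPKM, the number of sequenced fragments scaled to transcript length and to all mapped fragments, which allows genes to be compared with each other. The depth of the libraries is unknown. A gene is referred to as called when the authors' q, their p-value adjusted over all tested genes, was 0.05 or less. The standard error (SE) of a log2 fold change is the one implied by the authors' fold change and test statistic. Fold changes are STHdhQ111 over STHdhQ7 unless stated otherwise. In a mixed culture fewer cells that express a gene and less RNA per cell would give the same FPKM.

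The 3 carrier families work in different ways. The Slc2a genes encode the GLUT proteins, which let hexoses move down their concentration gradient, and GLUT carriers supply brain cells with most of their glucose. The Slc5a genes encode carriers that use the sodium gradient kept up by the sodium pump to draw in sugars, inositol, choline, vitamins or iodide. The Slc16a genes encode the MCT proteins, some of which move lactate, pyruvate and ketone bodies together with a proton, while others carry thyroid hormone or aromatic amino acids.

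Huntingtin itself was present in both lines, at 2.83 FPKM in STHdhQ111 and 3.91 FPKM in STHdhQ7, and was not called (the authors' q = 0.663). The labels give the cells a striatal origin, and defining markers of mature striatal neurons were near 0. Of 9 matched medium spiny neuron markers, only Penk exceeded 1 FPKM in either line, and Drd1a was listed at 0 in both. The 4 matched pan-neuronal markers (Rbfox3, Snap25, Dcx and Syt1) summed to 0.0961 FPKM in STHdhQ111 and 0.0523 FPKM in STHdhQ7. The neural progenitor markers Nes, Sox2 and Pax6 were all called lower in STHdhQ111, with a summed level of 1.58 FPKM there against 122.9 FPKM in STHdhQ7. The 5 fibroblast or mesenchymal markers summed to 2262 FPKM in STHdhQ111 and 634 FPKM in STHdhQ7, with Col1a1 and Col1a2 called higher. The astrocyte markers summed to 14.3 FPKM in STHdhQ111 and 13.3 FPKM in STHdhQ7, with Aqp4 at 0 in both lines. The endothelial markers summed to 1.63 FPKM in STHdhQ111 and 0.447 FPKM in STHdhQ7, with Cldn5 at 0 in both and Tek called higher. The microglial and leukocyte markers summed to 0.412 FPKM in STHdhQ111 and 0.166 FPKM in STHdhQ7. The ependymal and choroid plexus markers summed to 0.575 FPKM in STHdhQ111 and 11.1 FPKM in STHdhQ7, nearly all of it Foxj1, which was called lower, while Ttr was at 0 in both. The part of these marker differences in the carrier results was not tested.

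Both lines used a small part of the carrier repertoire. In each line 12 of the 37 genes were at 1 FPKM or more, and 10 of these were the same genes. Of all 23176 genes, 11312 in STHdhQ111 and 11414 in STHdhQ7 were at 1 FPKM or more, and 10722 were so in both. The authors' table gave a test for 17 carriers, and 20 had none. Of the 17, 4 were called: Slc16a4 and Slc2a9 rose in STHdhQ111, and Slc2a3 and Slc2a6 fell. That is 23.5% of the tested carriers, where 13.5% of all 12740 tested genes were called. By direction, 11.8% of the tested carriers were called higher, against 6.35% of all tested genes, and 11.8% were called lower, against 7.17%. With so few carriers each of these shares rests on 2 genes in each direction.

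**Figure D1:**
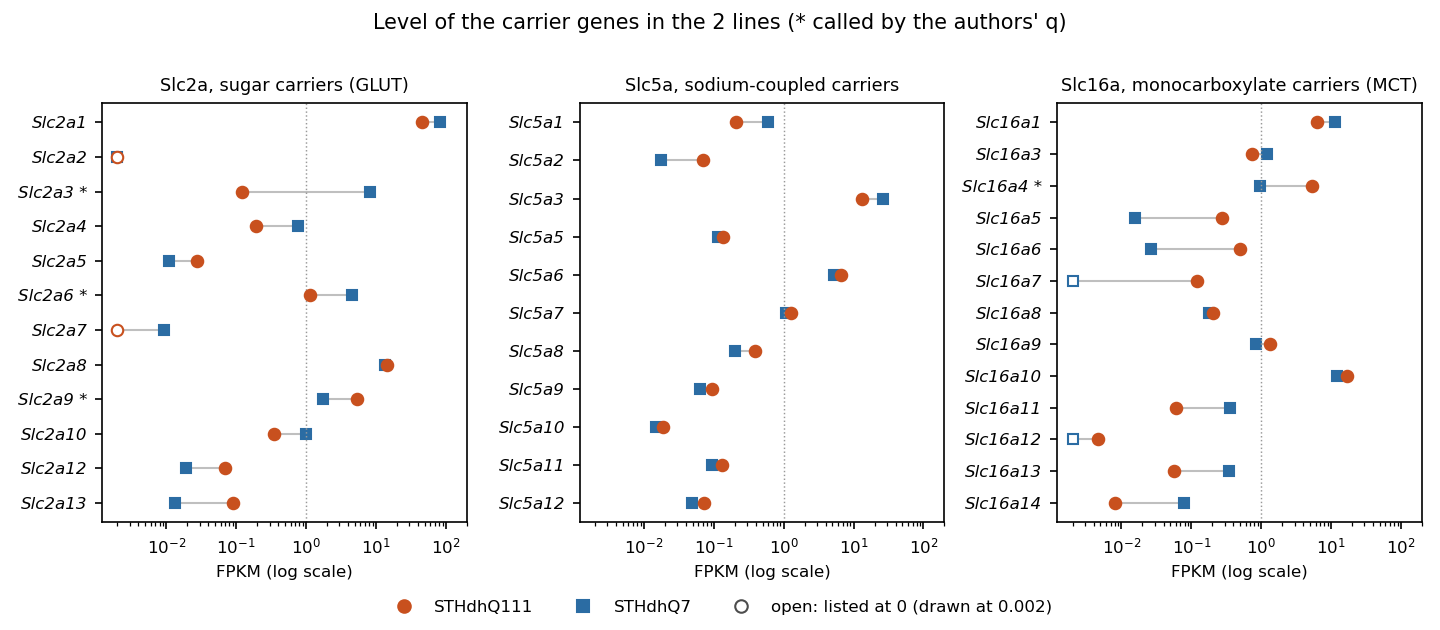
Level of 36 of the 37 carrier genes in FPKM on a log axis, with STHdhQ111 as circles, STHdhQ7 as squares, a grey line joining the values of a gene, open symbols for genes listed at 0 and an asterisk for called genes. Slc2a1 is the most abundant carrier in both lines, at 46.3 FPKM in STHdhQ111 and 83.5 FPKM in STHdhQ7, and Slc2a3 has the widest gap among the tested carriers, at 0.122 FPKM in STHdhQ111 and 8.30 FPKM in STHdhQ7.

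Among the glucose carriers of the cell surface, Slc2a3 was nearly absent from STHdhQ111. Slc2a3 encodes GLUT3, the high-affinity glucose carrier best known from neurons, and lies on chromosome 6 at 122677827 to 122692763 (mm9 build, as for all loci of the table). It was listed at 0.122 FPKM in STHdhQ111 and 8.30 FPKM in STHdhQ7, 67.9-fold lower in STHdhQ111. In the authors' deposited table Slc2a3 had a log2 fold change of -6.08 (SE 0.90) and a q of 9.39e-10. The size of this fall rests on a value near 0, and with 0.5 FPKM added to both lines the log2 ratio was -3.82. In STHdhQ7 the level of Slc2a3 stood above that of 45.5% of tested genes, and in STHdhQ111 above that of 2.23%. Its STHdhQ7 level stood beside pan-neuronal markers that were all under 0.1 FPKM in both lines. Of the 36-base words of its longest transcript, 97.7% occurred in no other gene's transcripts.

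Slc2a1 encodes GLUT1, the widely expressed glucose carrier of dividing cells and of the blood-brain barrier. It lies on chromosome 4 at 118781350 to 118809934. Slc2a1 was listed at 46.3 FPKM in STHdhQ111 and 83.5 FPKM in STHdhQ7. The authors' deposited table gives a log2 fold change of -0.85 (SE 0.39), and Slc2a1 was not called (the authors' p = 0.0276 and q = 0.153). The 95% interval of this fold change that the table implies ran from -1.61 to -0.09 on the log2 scale. Slc2a1 made up 67.9% of the summed GLUT FPKM in STHdhQ111 and 73.6% in STHdhQ7, so it led the family in both. Slc2a4, which encodes the insulin-responsive GLUT4 of muscle and fat, was low in both lines, at 0.189 FPKM in STHdhQ111 and 0.772 FPKM in STHdhQ7, and was not called (the authors' q = 0.133). Slc2a2, which encodes the low-affinity GLUT2 of liver and pancreatic beta cells, was listed at 0 in both.

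Slc2a6 and Slc2a9 moved in opposite directions. Slc2a6 encodes GLUT6, a carrier found on lysosomal membranes, and lies on chromosome 2 at 26876885 to 26883518. It fell to 1.13 FPKM in STHdhQ111, against 4.58 FPKM in STHdhQ7. In the authors' deposited table Slc2a6 had a log2 fold change of -2.01 (SE 0.63) and a q of 0.0141. Slc2a9 encodes GLUT9, known mainly as a carrier of urate, and lies on chromosome 5 at 38740512 to 38893391. It rose to 5.35 FPKM in STHdhQ111, against 1.73 FPKM in STHdhQ7, 3.09-fold. For Slc2a9 the authors' deposited table gives a log2 fold change of 1.63 (SE 0.48) and a q of 0.0077. Every 36-base word of the longest Slc2a6 and Slc2a9 transcripts was absent from the transcripts of other genes.

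Of the other intracellular GLUT genes, Slc2a8 was abundant and nearly level between the lines. It encodes GLUT8, a glucose carrier held on internal membranes, and was listed at 14.6 FPKM in STHdhQ111 and 13.5 FPKM in STHdhQ7. The authors' deposited table gives Slc2a8 a log2 fold change of 0.11, an implied 95% interval of -0.70 to 0.92 and a q of 0.979. Slc2a8 made up 21.4% of the summed GLUT FPKM in STHdhQ111 and 11.9% in STHdhQ7. Slc2a10 encodes GLUT10, whose gene is mutated in human arterial tortuosity syndrome. It was listed at 0.346 FPKM in STHdhQ111 and 0.984 FPKM in STHdhQ7 and was not called (the authors' q = 0.211).

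The summed FPKM of the 12 GLUT genes was 68.2 in STHdhQ111 and 113.4 in STHdhQ7, a ratio of 0.601. Most of that gap came from Slc2a1, and without it the sums were 21.9 in STHdhQ111 and 29.9 in STHdhQ7. The order of the genes below Slc2a1 and Slc2a8 differed. Slc2a9 stood in the third place in STHdhQ111 with 7.85% of the sum, a place held by Slc2a3 in STHdhQ7 with 7.32%. Slc2a3 made up 0.179% of the sum in STHdhQ111, and Slc2a9 made up 1.53% in STHdhQ7. In all, 1 of 7 tested Slc2a genes was called higher and 2 lower by the authors' Cuffdiff test. In the same test 1 was higher and 5 lower at an unadjusted p under 0.05. The called share of 42.9% rests on 3 genes and stood beside 13.5% of all tested genes, of which 21.2% had an unadjusted p under 0.05.

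**Figure D2:**
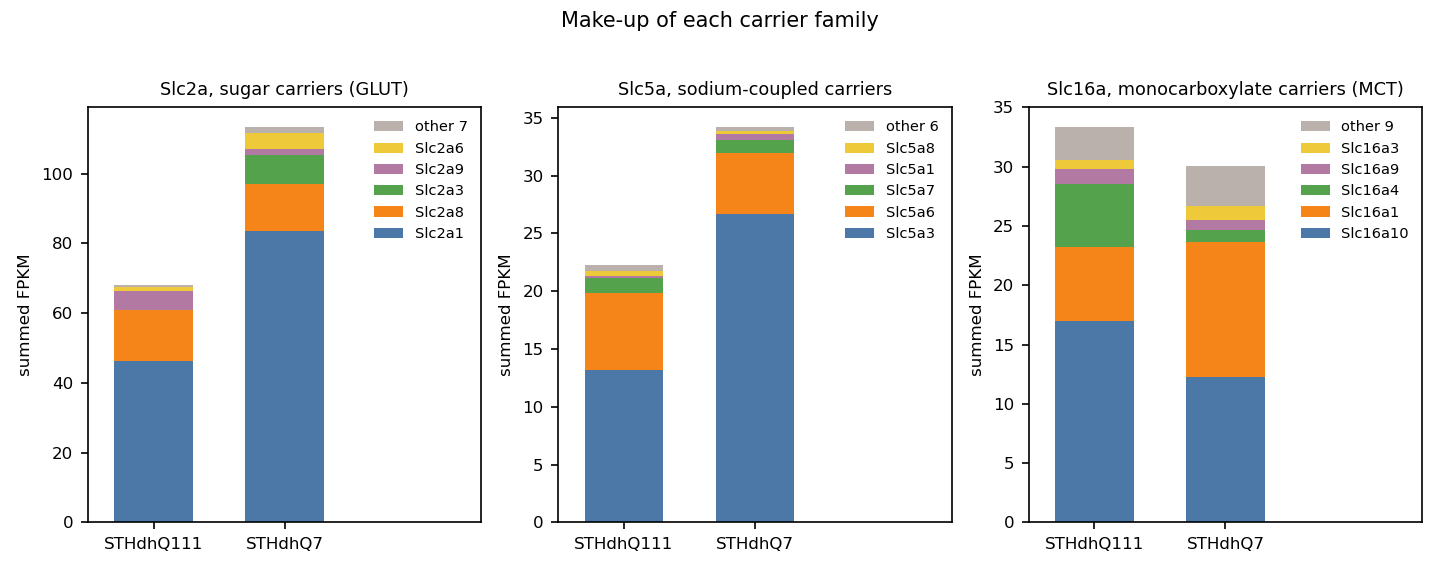
Summed FPKM of each carrier family, STHdhQ111 on the left and STHdhQ7 on the right of each panel, with 5 abundant genes in colour and the rest in grey. The GLUT bar reaches 68.2 FPKM in STHdhQ111 and 113.4 FPKM in STHdhQ7, while the Slc16a bars, at 33.3 FPKM in STHdhQ111 and 30.1 FPKM in STHdhQ7, are close in height but differ in make-up.

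Among the monocarboxylate carriers, Slc16a4 rose in STHdhQ111. It encodes MCT5, a family member whose cargo is not well established, and lies on chromosome 3 at 107094210 to 107115033. Slc16a4 was listed at 5.27 FPKM in STHdhQ111 and 0.953 FPKM in STHdhQ7, 5.53-fold higher in STHdhQ111. In the authors' deposited table Slc16a4 had a log2 fold change of 2.47 (SE 0.60) and a q of 0.0006. Slc16a4 made up 15.8% of the summed Slc16a FPKM in STHdhQ111 and 3.17% in STHdhQ7. Every 36-base word of its longest transcript was absent from the transcripts of other genes.

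The carriers of lactate showed no call. Slc16a1 encodes MCT1, the common carrier of lactate, pyruvate and ketone bodies, and lies 2631824 bases before Slc16a4 on the same chromosome. It was listed at 6.29 FPKM in STHdhQ111 and 11.4 FPKM in STHdhQ7. The authors' deposited table lists a log2 fold change of -0.86 (SE 0.41) for Slc16a1, with a p of 0.0381 and a q of 0.193. Slc16a3 encodes MCT4, the lactate exporter of glycolytic cells, and was listed at 0.730 FPKM in STHdhQ111 and 1.21 FPKM in STHdhQ7 (the authors' q = 0.767). Slc16a7, which encodes the neuronal lactate carrier MCT2, was listed at 0.119 FPKM in STHdhQ111 and at 0 in STHdhQ7, and had no test. Slc16a8, which encodes the MCT3 of the retinal pigment epithelium, was listed at 0.203 FPKM in STHdhQ111 and 0.179 FPKM in STHdhQ7, also with no test. By RNA level Slc16a1 was thus the highest of the 4 classical lactate carrier genes in both lines, and protein was not measured.

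The Slc16a gene of the highest level was in both lines a carrier of amino acids. Slc16a10 encodes TAT1, which moves aromatic amino acids and thyroid hormone, and was listed at 16.95 FPKM in STHdhQ111 and 12.3 FPKM in STHdhQ7 (the authors' q = 0.774). It made up 50.8% of the summed Slc16a FPKM in STHdhQ111 and 40.8% in STHdhQ7. Slc16a9, which encodes the carnitine carrier MCT9, was listed at 1.32 FPKM in STHdhQ111 and 0.844 FPKM in STHdhQ7 (the authors' q = 0.729). Only 79.0% of the 36-base words of Slc16a9 occurred in no other gene's transcripts, so its values are less certain. In all, 1 of 6 tested Slc16a genes was called higher and none lower by the authors' Cuffdiff test. In the same test 1 was higher and 1 lower at an unadjusted p under 0.05. The called share of 16.7% stood beside 13.5% of all tested genes, of which 21.2% had an unadjusted p under 0.05.

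The sodium-coupled family held no called gene. Of its 4 tested members none was called by the authors' Cuffdiff test, and 1, Slc5a3, had an unadjusted p under 0.05. Among all tested genes 13.5% were called and 21.2% had an unadjusted p under 0.05, so no call among 4 genes says little. Slc5a3 encodes SMIT1, the myo-inositol carrier that cells raise under osmotic stress, and was listed at 13.2 FPKM in STHdhQ111 and 26.7 FPKM in STHdhQ7. The authors' deposited table lists a log2 fold change of -1.02 for Slc5a3, with an implied 95% interval of -1.93 to -0.11, a p of 0.0278 and a q of 0.154. The locus of Slc5a3 is the same as that of Mrps6, a mitochondrial ribosomal protein gene, which was listed at 74.5 FPKM in STHdhQ111 and 136.7 FPKM in STHdhQ7 and was not called. Reads from overlapping genes can be hard to assign, and the library protocol is not described as marking strand. Slc5a3 made up 59.3% of the summed Slc5a FPKM in STHdhQ111 and 78.1% in STHdhQ7.

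None of the other tested Slc5a genes had an unadjusted p under 0.05. Slc5a6 encodes SMVT, the carrier of biotin and pantothenate, and was listed at 6.64 FPKM in STHdhQ111 and 5.26 FPKM in STHdhQ7 (the authors' q = 0.919). It shares its locus with 0610007C21Rik, listed at 32.6 FPKM in STHdhQ111 and 25.9 FPKM in STHdhQ7, and only 70.1% of its 36-base words occurred in no other gene's transcripts. Slc5a7 encodes the high-affinity choline carrier of cholinergic neurons. It was listed at 1.29 FPKM in STHdhQ111 and 1.08 FPKM in STHdhQ7 (the authors' q = 0.961). Slc5a1, which encodes SGLT1, the glucose carrier of intestine and kidney, was listed at 0.209 FPKM in STHdhQ111 and 0.589 FPKM in STHdhQ7 (the authors' q = 0.325).

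**Figure D3:**
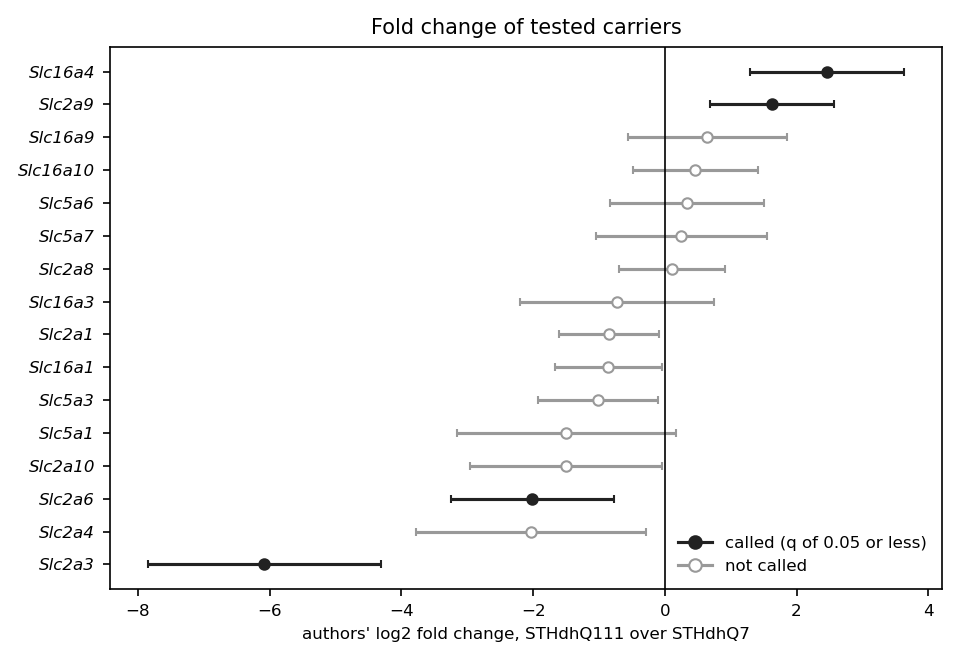
The authors' log2 fold change, STHdhQ111 over STHdhQ7, of 16 of the 17 tested carriers, with bars for the 95% interval implied by the authors' statistic and filled symbols for called genes. Slc2a3 lies at -6.08, apart from the other 15, whose values run from -2.03 (Slc2a4) to 2.47 (Slc16a4).

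The 17 tested carriers had a median log2 ratio of (FPKM + 0.5) of -0.49, beside -0.05 for all tested genes. Of these carriers 7 had a ratio above 0 and 10 below. The sign of the median depended on which carriers entered it. It was 0.050 over all 37 carriers and 0.11 over the tested carriers that averaged at least 1 FPKM. By family the medians of the tested genes were -0.84 for Slc2a, -0.22 for Slc5a and -0.02 for Slc16a. Before adjustment, 7 of the 17 had a p under 0.05 and a lower value in STHdhQ111, 41.2% of them, beside 11.8% of all tested genes. Slc2a3 and Slc2a6 were the called ones, and the others were Slc2a1, Slc2a4, Slc2a10, Slc5a3 and Slc16a1. None of the 20 untested carriers exceeded 0.494 FPKM in STHdhQ111 (Slc16a6) or 0.360 FPKM in STHdhQ7 (Slc16a11). In 11 of them both values were under 0.1 FPKM. Listed values were higher in STHdhQ111 for 15, lower for 4 (Slc2a7, Slc16a11, Slc16a13 and Slc16a14) and 0 in both for Slc2a2. Among untested genes of the whole table whose values differed, 54.8% were listed higher in STHdhQ111. The untested Slc2a genes included the fructose carrier gene Slc2a5, at 0.0277 FPKM in STHdhQ111 and 0.0108 FPKM in STHdhQ7. Slc2a13, which encodes the proton-coupled inositol carrier HMIT of brain, was listed at 0.0903 FPKM in STHdhQ111 and 0.0133 FPKM in STHdhQ7. Slc5a2, which encodes the renal glucose carrier SGLT2, stood at 0.0706 FPKM in STHdhQ111 and 0.0174 FPKM in STHdhQ7, within a locus shared with BC017158. The iodide carrier gene Slc5a5, known from the thyroid, was listed at 0.137 FPKM in STHdhQ111 and 0.115 FPKM in STHdhQ7. The sodium-coupled lactate carrier gene Slc5a8 was listed at 0.395 FPKM in STHdhQ111 and 0.202 FPKM in STHdhQ7.

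A neighbouring pair of untested carriers had similar values. Slc16a11 and Slc16a13 lie 377 bases apart on chromosome 11, at 70027412 to 70029916 and 70030294 to 70034496. Slc16a11 was listed at 0.0598 FPKM in STHdhQ111 and 0.360 FPKM in STHdhQ7. Slc16a13 was listed at 0.0562 FPKM in STHdhQ111 and 0.352 FPKM in STHdhQ7. Both members of the pair had lower values in STHdhQ111, by similar factors, and neither had a test. Slc16a6 was listed at 0.494 FPKM in STHdhQ111 and 0.0263 FPKM in STHdhQ7, and its locus is the same as that of Arsg, a sulfatase gene listed at 0.759 FPKM in STHdhQ111 and 0.00583 FPKM in STHdhQ7. Slc16a5 was listed at 0.277 FPKM in STHdhQ111 and 0.0158 FPKM in STHdhQ7. Slc5a10 shares its locus with Fam83g, which was called higher at 2.46 FPKM in STHdhQ111, against 0.0303 FPKM in STHdhQ7. Slc5a10 itself was listed at 0.0185 FPKM in STHdhQ111 and 0.015 FPKM in STHdhQ7, so the steep difference at this locus was listed under Fam83g.

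The sequences before the annotated start are shown for the called carriers that have an entry in the promoter table, Slc2a6, Slc2a9 and Slc16a4, and for the most abundant carrier of each family, Slc2a1, Slc5a3 and Slc16a10. They let the reader compare genes that rose, fell or were not called. The 250 bases before each start come from RefSeq on the GRCm38.p6 build and are written on the strand of the gene. Capitals mark GCGTG or ACGTG, core words of the hypoxia response element, on either strand, where the opposite strand reads CACGC or CACGT. The regions are chr2:27027999-27028248 (minus strand) for Slc2a6, chr5:38483386-38483635 (minus strand) for Slc2a9 and chr3:107290980-107291229 (plus strand) for Slc16a4. They are chr4:119108495-119108744 (plus strand) for Slc2a1, chr16:92058072-92058321 (plus strand) for Slc5a3 and chr10:40142255-40142504 (minus strand) for Slc16a10.
Slc2a6: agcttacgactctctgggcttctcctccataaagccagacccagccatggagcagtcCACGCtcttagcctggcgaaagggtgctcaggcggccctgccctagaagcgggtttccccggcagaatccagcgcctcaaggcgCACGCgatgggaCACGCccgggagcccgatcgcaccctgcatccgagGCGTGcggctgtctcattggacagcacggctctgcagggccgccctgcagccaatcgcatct
Slc2a9: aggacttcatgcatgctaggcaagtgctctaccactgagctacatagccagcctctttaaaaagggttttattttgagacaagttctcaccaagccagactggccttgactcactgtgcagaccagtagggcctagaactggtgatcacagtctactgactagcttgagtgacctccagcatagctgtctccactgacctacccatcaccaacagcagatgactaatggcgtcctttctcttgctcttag
Slc16a4: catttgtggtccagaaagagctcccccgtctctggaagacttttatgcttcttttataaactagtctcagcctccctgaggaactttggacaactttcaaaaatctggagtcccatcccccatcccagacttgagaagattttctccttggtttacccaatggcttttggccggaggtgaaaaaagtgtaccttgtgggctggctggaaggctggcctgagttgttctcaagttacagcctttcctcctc
Slc2a1: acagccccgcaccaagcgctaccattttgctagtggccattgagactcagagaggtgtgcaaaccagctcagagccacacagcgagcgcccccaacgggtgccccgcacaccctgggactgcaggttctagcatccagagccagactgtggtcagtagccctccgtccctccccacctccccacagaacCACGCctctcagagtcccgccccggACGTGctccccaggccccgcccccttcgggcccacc
Slc5a3: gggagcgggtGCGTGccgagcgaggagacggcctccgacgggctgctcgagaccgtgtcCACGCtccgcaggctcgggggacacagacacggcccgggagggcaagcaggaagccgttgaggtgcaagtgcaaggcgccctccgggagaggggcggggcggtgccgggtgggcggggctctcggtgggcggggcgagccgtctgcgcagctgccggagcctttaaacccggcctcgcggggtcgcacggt
Slc16a10: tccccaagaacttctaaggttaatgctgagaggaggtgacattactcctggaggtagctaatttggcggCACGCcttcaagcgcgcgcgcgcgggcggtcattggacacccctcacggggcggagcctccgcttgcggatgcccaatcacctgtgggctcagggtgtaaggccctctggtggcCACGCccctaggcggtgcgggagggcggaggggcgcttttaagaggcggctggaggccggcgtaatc

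Slc2a6, which fell, held 4 GCGTG words in these 250 bases and a GC share of 65.2%. Slc2a9 and Slc16a4, which rose, held neither word, with GC shares of 48.8% for Slc2a9 and 48% for Slc16a4. Slc2a3, the other carrier called lower, had no promoter sequence to show. Slc2a1 held 1 ACGTG and 1 GCGTG. Slc5a3, listed lower, and Slc16a10, listed higher, were not called and held 2 GCGTG each. For each gene shown only this annotated start was searched, and which starts these cells use was not tested. The same search was run in windows of 250 bases before to 50 after the start, and 27 of the 37 carriers had such a window. GCGTG occurred in 9 of the 14 tested carriers with a window, 64.3%, beside 56.5% of 8950 tested genes and 35.2% of all 27025 genes with a window. ACGTG occurred in 5 of the 14, 35.7%, beside 29.3% of tested genes. CACGTG, the E-box bound by MYC and related factors, contains ACGTG and occurred in 2 of the 14, beside 11.8% of tested genes. A match of these letters is a description and not evidence of binding.

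Genes that work with the carriers were described from lists of partners, enzymes, regulators and ion pumps. Among 16 tested carrier partners and regulators, 1 was called higher and 1 lower. That is 12.5% of the list, near the 13.5% of all tested genes that were called. Emb encodes embigin, a membrane glycoprotein that accompanies MCT2 to the cell surface, and rose to 37.3 FPKM in STHdhQ111, against 0.278 FPKM in STHdhQ7. In the authors' deposited table Emb had a log2 fold change of 7.07 (SE 0.58) and a q listed as 0. Its usual partner Slc16a7 stood at 0.119 FPKM in STHdhQ111 and 0 in STHdhQ7. Bsg encodes basigin, the companion of MCT1 and MCT4, and was listed at 967 FPKM in STHdhQ111 and 457 FPKM in STHdhQ7 without a call (the authors' q = 0.128). Slc9a3r1, which encodes a PDZ scaffold of membrane carriers, fell to 31.8 FPKM in STHdhQ111, against 95.8 FPKM in STHdhQ7 (the authors' q = 0.000682). Txnip, which encodes a protein that lowers GLUT1 at the surface, was listed at 199.6 FPKM in STHdhQ111 and 165.9 FPKM in STHdhQ7 and was not called. For the whole list the median log2 ratio was 0.16.

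Of the 15 tested genes of glucose phosphorylation and of lactate and pyruvate conversion, 2 were called lower and none higher by the authors' Cuffdiff test, with 5 lower and 3 higher at an unadjusted p under 0.05. The called share of 13.3% is near that of all tested genes, 13.5%. Of all tested genes 21.2% had an unadjusted p under 0.05. Khk encodes ketohexokinase, the first enzyme of fructose breakdown, and fell to 1.96 FPKM in STHdhQ111, against 21.5 FPKM in STHdhQ7. Pdk4 encodes a kinase that shuts off pyruvate dehydrogenase, and fell to 2.24 FPKM in STHdhQ111, against 13.8 FPKM in STHdhQ7. The abundant genes of the list were not called. Ldha, for the lactate dehydrogenase subunit of glycolytic cells, was listed at 307 FPKM in STHdhQ111 and 506 FPKM in STHdhQ7 (the authors' q = 0.347). Hk1, which encodes the main hexokinase of brain, was listed at 81.6 FPKM in STHdhQ111 and 145.4 FPKM in STHdhQ7 (the authors' q = 0.233). Over these 15 genes the median log2 ratio was -0.68.

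None of the 8 tested regulators of carrier transcription was called by the authors' Cuffdiff test, and 1 was higher and 2 lower at an unadjusted p under 0.05. In the same test 13.5% of all tested genes were called and 21.2% had an unadjusted p under 0.05. With 8 genes the lack of a call says little. Hif1a encodes the oxygen-regulated factor known to raise Slc2a1, and was listed at 41.2 FPKM in STHdhQ111 and 22.2 FPKM in STHdhQ7 (the authors' q = 0.111). Its partner gene Arnt was listed at 27.0 FPKM in both lines. The median log2 ratio of the regulators was -0.18.

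The sodium pump builds the gradient that Slc5a carriers use. Of its 7 tested subunit genes 3 were called lower and none higher by the authors' Cuffdiff test, with 4 lower and none higher at an unadjusted p under 0.05. The 3 calls are 42.9% of the list, where 7.17% of all tested genes were called lower. Of all tested genes 11.8% were lower at an unadjusted p under 0.05. The regulatory subunit gene Fxyd6 fell to 0.866 FPKM in STHdhQ111, against 24.5 FPKM in STHdhQ7, 28.3-fold. Fxyd5, for another regulatory subunit, fell to 11.4 FPKM in STHdhQ111, against 28.0 FPKM in STHdhQ7 (the authors' q = 0.0473). The beta subunit genes Atp1b3 (55.6 FPKM in STHdhQ111 and 93.1 FPKM in STHdhQ7) and Atp1b1 (18.2 FPKM in STHdhQ111 and 28.3 FPKM in STHdhQ7) were not called. Over all tested subunit genes the median log2 ratio was -1.10. The count of 3 fell to 1 at a q of 0.01 or when the adjustment was confined to genes averaging at least 1 FPKM.

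The last list held genes that make or use the cargo of these carriers, inositol, choline, ketone bodies, creatine and thyroid hormone. Of 14 tested genes 3 were called lower and none higher by the authors' Cuffdiff test, with 5 lower and 1 higher at an unadjusted p under 0.05. The 3 calls are 21.4% of the list, beside 7.17% of all tested genes called lower and 11.8% lower at an unadjusted p under 0.05. Isyna1 encodes the enzyme that makes inositol phosphate from glucose phosphate, and fell to 8.61 FPKM in STHdhQ111, against 32.9 FPKM in STHdhQ7 (the authors' q = 0.000148). In the same comparison the inositol carrier gene Slc5a3 was listed at 13.2 FPKM in STHdhQ111 and 26.7 FPKM in STHdhQ7 without a call. Oxct1, for the enzyme that activates ketone bodies for use in mitochondria, fell to 25.4 FPKM in STHdhQ111, against 53.0 FPKM in STHdhQ7 (the authors' q = 0.0463). The thyroid hormone receptor gene Thrb fell to 0.0406 FPKM in STHdhQ111, against 1.02 FPKM in STHdhQ7 (the authors' q = 0.00287). Its log2 fold change of -4.65 (SE 1.26) rests on a value near 0, and with 0.5 FPKM added to both lines the log2 ratio was -1.49. The other receptor gene, Thra, was listed at 72.1 FPKM in STHdhQ111 and 74.5 FPKM in STHdhQ7 and was not called. The creatine carrier gene Slc6a8 was also not called, at 47.9 FPKM in STHdhQ111 and 43.9 FPKM in STHdhQ7. Over the list the median log2 ratio was -0.10. The count of 3 was 2 when the adjustment was confined to genes averaging at least 1 FPKM.

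**Figure D4:**
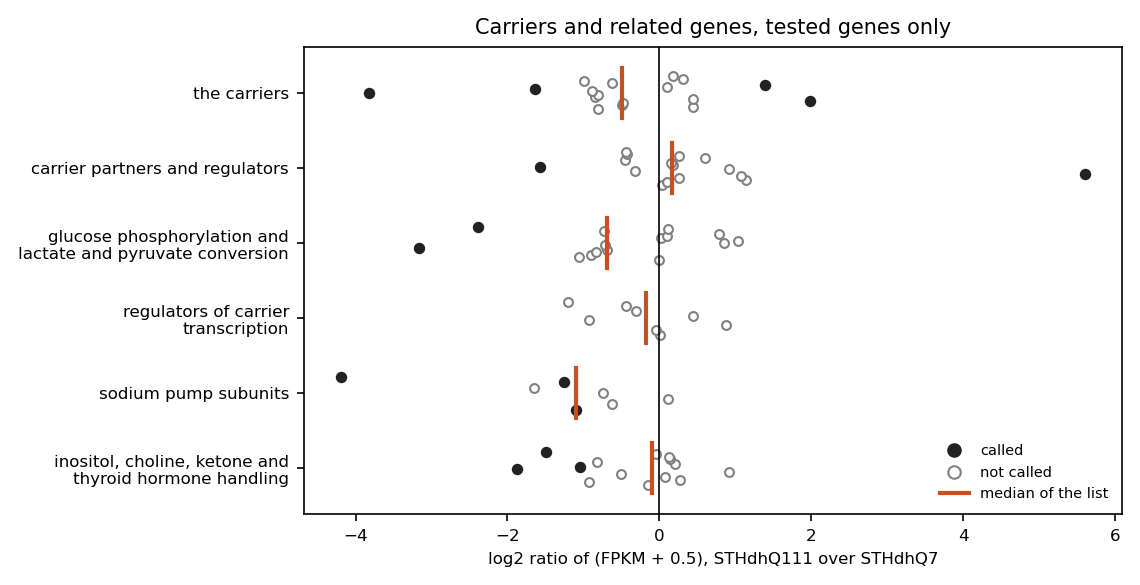
Log2 ratio of (FPKM + 0.5), STHdhQ111 over STHdhQ7, of the tested carriers and of the tested genes of each related list, with filled points for called genes and a coloured bar at the median. The carriers' median is -0.49 and the sodium pump subunits' median is -1.10, and Emb is the point furthest to the right.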

How the data were processed

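For each gene the authors' deposited table holds, per the file headers, 1 FPKM value per line (replicates combined), a log2 fold change, a statistic, a p-value and a q-value. The submitters' processing notes name TopHat 1.4.0, Bowtie 0.12.7, Cufflinks 2.0.2, Cuffdiff and the mm9 build. The Cuffdiff version, settings and gene models were not given in the sources used here. No label says whether replicates were separate cultures, so the spread behind the authors' tests may be technical.

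Deposited p-values matched a two-sided normal tail of the statistic to within 2.7e-06. Dividing the size of each log2 fold change by the size of its statistic therefore gave the SE (median 0.44 over tested genes). Signs were ignored, because the deposited statistic had the sign of the log2 fold change in 0 of 12647 tested genes. Deposited q-values matched a Benjamini-Hochberg adjustment of the 12740 genes with the status OK, which are the tested genes, to within 2.2e-06. Locus starts were read as 0-based and raised by 1. Log2 ratios used FPKM + 0.5, which shrinks the changes of low genes. With 1 combined value per line no test was run here, and lists are described by counts and medians. Words of 36 bases were searched on both strands of GENCODE M21 transcripts. RefSeq promoter windows matched 27 carriers. Carriers that were called, or at 1 FPKM or more in either line, are described with values, as are the called genes of each related list and up to 2 uncalled ones of the highest mean. From these, 1 carrier and 1 gene of a related list are not reported here. Carriers named beyond this were chosen after their values were seen. The carriers and lists were chosen with earlier results of these data known. Adjustment and calling were tested on simulated data. Python 3.11.15, numpy 2.4.6, pandas 2.3.3 and scipy 1.17.1 were used.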

Additional observations from a re-analysis of the deposited data

How the results depend on the processing

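The alternatives were a q threshold of 0.01 or 0.1, a minimum of 4-fold, q recomputed over genes averaging at least 1 FPKM, a pseudocount of 0.1 or 1 FPKM, and recentring by the median of expressed genes (-0.05). None of them could reverse the direction of the 4 called carriers, so that direction was not tested. Thresholds and q leave the ratios as they are, and a pseudocount added to both lines cannot change a sign. The recentring shift was small beside the ratios of these carriers. Carriers called higher numbered 1 with the 4-fold minimum, where Slc2a9 was lost, and carriers called lower numbered 1 at a q of 0.01, where Slc2a6 was lost (its q is 0.0141). In each of these 2 settings 3 of the 17 tested carriers were called in either direction. The share of all tested genes called fell too, from 13.5% to 8.23% with the 4-fold minimum and 9.61% at a q of 0.01. It was 16.1% at a q of 0.1, and 12.3% of 11534 genes with q recomputed. With the 4-fold minimum the counts called lower were 0 for carrier partners, 1 for sodium pump subunits and 1 for cargo handling genes. The sodium pump count was also 1 at a q of 0.01 and 1 with q recomputed. At a q of 0.1, 1 regulator of carrier transcription was called lower. All other counts stayed within 1.5 times. The carriers' median log2 ratio was -0.66 with a pseudocount of 0.1 FPKM and -0.38 as a mean. It turned to 0.050 over all carriers, tested or not, and to 0.11 over tested carriers averaging at least 1 FPKM, and both settings change only which carriers are counted. Of 115 comparisons of single carriers with an alternative, 113 gave the same direction and call. Many of them could not differ, because the q settings leave the ratio unchanged and the pseudocounts and recentring leave q unchanged. The count is therefore no measure of stability. Leaving out a replicate was not possible, because replicates are combined. No paired analysis was possible because each line has 1 combined value. Depth is unknown, so no counting error can be given for genes near 0.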
